A study of Mus musculus with 7 samples.

Results

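The mouse microRNAs mmu-miR-126-3p, mmu-miR-126-5p, mmu-miR-221, mmu-miR-222 and mmu-miR-218, written below without the species prefix, were chosen by name as microRNAs known from endothelial cells. All 5 were on the array, among 611 mouse microRNAs, and all 5 were among the 213 microRNAs tested. They were measured in whole kidneys of male mice labelled as 4 weeks old (3.5 to 4 weeks in the protocol). The wild-type group (mgb+/+) held 4 mice, and the group homozygous for the megabladder mutation (mgb-/-) held 3, numbered 2 to 4, each mouse on its own Agilent 1-colour array. A kidney of megabladder mouse 1, one of 4 mutants counted in the series text, was not analysed here. Megabladder mutants have a bladder with little functional smooth muscle, urine backs up, and the labels call their kidneys obstructed. No strain was named in the labels. The comparison between the genotypes asks whether the obstructed kidneys differ in their microRNAs.

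A microRNA is cut from a hairpin precursor, whose arms give a 5p and a 3p strand. The strand loaded into an Argonaute protein pairs with messenger RNAs mainly through its seed, bases 2 to 8, and lowers their output. miR-126 lies within Egfl7, a gene of endothelial cells, and its 3p strand restrains inhibitors of the signalling of vascular endothelial growth factor, such as Spred1. Its 5p strand is known to repress Dlk1 in endothelial cells. miR-221 and miR-222 come from neighbouring hairpins and repress Kit, the receptor of stem cell factor, and the cell cycle inhibitor p27. miR-218 lies within Slit2 and Slit3, genes of secreted guidance proteins, and represses their Robo receptors. None of these microRNAs is confined to endothelium, and in whole kidney RNA fewer cells of a type cannot be told apart from less of a microRNA per cell.

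The mature sequences show which strands share a seed and so could pair with the same kind of site. They are from the RefSeq annotation of GRCm38.p6, 5′ to 3′, with the seed in capitals, and 4 of the 5 microRNAs had an entry. RefSeq lists miR-126-3p as miR-126a-3p, miR-221 and miR-222 as 3p strands and miR-218 as a 5p strand.
miR-126-3p: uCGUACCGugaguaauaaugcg
miR-221: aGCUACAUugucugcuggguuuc
miR-222: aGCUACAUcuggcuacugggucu
miR-218: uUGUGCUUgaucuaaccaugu
miR-221 and miR-222 began with the same 8 bases and so carried 1 seed, and they were identical at 11 of 23 positions. The seeds of miR-126-3p and miR-218 each differed from it and from each other. Among 1679 mature names in that annotation no other strand had the seed of miR-126-3p. The seed of miR-221 and miR-222 was also that of miR-1928, and the seed of miR-218 that of miR-7002-3p.

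The hairpins show where the strands come from, with the mature strand in capitals. The precursor of miR-126 lies on the plus strand of chromosome 2 within the span of Egfl7, and both of its arms were on the array. miR-218 has precursors within Slit2 on chromosome 5 and within Slit3 on chromosome 11, both on the plus strand. They give the same mature strand, so its level on the array is the sum of both.
Mir126a: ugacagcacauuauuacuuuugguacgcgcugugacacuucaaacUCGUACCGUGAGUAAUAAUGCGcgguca
Mir218-1: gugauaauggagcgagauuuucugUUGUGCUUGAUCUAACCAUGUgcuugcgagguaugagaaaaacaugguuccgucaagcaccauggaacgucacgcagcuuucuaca
Mir218-2: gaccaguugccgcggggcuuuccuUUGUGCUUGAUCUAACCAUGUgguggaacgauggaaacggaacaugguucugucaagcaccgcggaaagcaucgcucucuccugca
The hairpins of miR-221 and miR-222 lie on the minus strand of chromosome X with 504 bases between them.

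Each array found 190 to 210 microRNAs above background. All 7 tubule microRNAs of the marker list were above background on at least 3 arrays. Of the 3 neuron microRNAs listed, miR-124 and miR-9 were above it on none, while miR-128 was above it on at least 3. Levels below are log2 of the spot signal after each array was brought to a common 75th percentile over probes detected on all arrays. The scaling factors were 0.61 log2 units lower in megabladder arrays and did not overlap between the genotypes (2-sided exact permutation p = 0.0286, the lowest value possible over 35 splits). The wild-type arrays filled 1 row of the slide and the megabladder arrays sat in the second, so row and genotype cannot be told apart. Labels name a separate mouse for each array, and the tests below treat the mice as independent. Arrays were also compared by their median difference over detected probes, in units of the error between spots. Wild-type mice 1 and 2 (2.21) and wild-type mice 3 and 4 (2.38) were the closest pairs. The other wild-type pairs stood at 4.40 to 6.40 and the megabladder pairs at 3.03 to 7.71. The cause of this pairing was not tested, and 1 alternative left out wild-type mice 3 and 4.

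None of the 5 endothelial microRNAs differed between the genotypes by limma at a Benjamini-Hochberg adjusted p under 0.05, where 3.29% of the 213 microRNAs did (2.82% higher and 0.469% lower in megabladder kidneys). All 5 had a mean below that of wild-type kidneys, with log2 fold changes from -0.23 to -0.019. Of all 213 tested, 68 had a negative and 145 a positive log2 fold change. The 5 share the same few mice and are not independent. The median log2 fold change was -0.065 for the 5 and 0.087 for all tested. The groups did not overlap for 1 of the 5, miR-126-5p, and for 22.1% of all tested microRNAs. The unadjusted limma p was under 0.05 for none of the 5 and for 23.0% of all tested. Most microRNAs called higher at the adjusted threshold had wild-type means of 3.55 to 3.77. That is near 3.51, the lower limit set on all levels, so the shares of all tested include dim microRNAs.

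**Figure D1:**
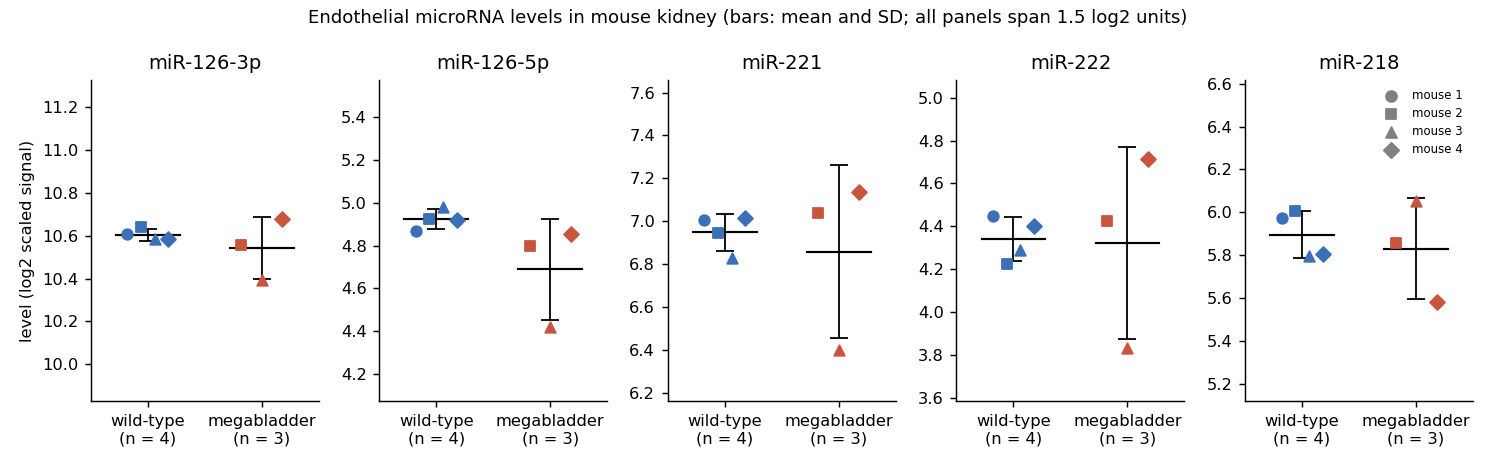
Level of each endothelial microRNA (log2 scaled signal) in 4 wild-type and 3 megabladder kidneys, 1 point per mouse, its shape giving the mouse number; lines and bars are the mean and SD, and each panel spans 1.5 log2 units. The groups overlap for all but miR-126-5p, and megabladder mouse 3 is the lowest of all mice for miR-126-3p, miR-126-5p, miR-221 and miR-222 and the highest for miR-218.

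miR-126-3p, the strand that restrains Spred1, stood at 10.61, 10.64, 10.58 and 10.58 in wild-type mice 1 to 4. It stood at 10.56, 10.39 and 10.68 in megabladder mice 2 to 4. Megabladder mouse 3 lay below and megabladder mouse 4 above all other mice, so the groups overlapped. The wild-type mean was 10.60 ± 0.027 (SD, n = 4), against 10.54 ± 0.14 (SD, n = 3) in the mutants. The difference was -0.062, with a 95% interval of -0.29 to 0.16 and an adjusted p of 0.799 in limma. As a fold this interval runs from 0.820 to 1.12. Both of its probes were well above background on all 7 arrays and gave -0.083 and -0.041. Without megabladder mouse 3 the difference was 0.014.

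miR-126-5p, the other arm of the same hairpin, was read at 4.87, 4.92, 4.98 and 4.92 in wild-type mice 1 to 4. In megabladder mice 2 to 4 it was read at 4.80, 4.42 and 4.85. All 3 megabladder values lay below all 4 wild-type values, and megabladder mice 2 and 4 lay close to the lowest of them. The means were 4.92 ± 0.045 (SD, n = 4) and 4.69 ± 0.24 (SD, n = 3). The difference of -0.23 had a 95% interval of -0.52 to 0.055 and did not pass in limma (adjusted p = 0.330). Without megabladder mouse 3 it was -0.098. Its level rested on 1 of its 2 probes, since its second probe stayed below the background limit on all 7 arrays. The spots of the probe used averaged 18.6 to 45.2 scanner units before scaling, against a floor of 11.4 units after it.

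The arms of miR-126 are read on the same array, so a factor common to the array cancels in their ratio. Probes differ in brightness, so the size of the ratio says nothing about the number of molecules of each arm, and its change between mice is what can be read. On the log2 scale the ratio of miR-126-3p over miR-126-5p was 5.74, 5.72, 5.60 and 5.67 in wild-type mice 1 to 4. It was 5.76, 5.97 and 5.83 in megabladder mice 2 to 4. All megabladder ratios lay above all wild-type ratios, with megabladder mouse 2 at 5.76 next to wild-type mouse 1 at 5.74. The difference between the means was 0.17, at 5.68 ± 0.060 (SD, n = 4) against 5.85 ± 0.11 (SD, n = 3). The 2-sided exact permutation p was 0.0286, again the lowest possible, and 0.0571 when adjusted over the 2 ratios tested. Among all 22578 pairs of tested microRNAs, 25.5% had ratios that did not overlap between the genotypes. The 95% interval from limma was -0.042 to 0.39, which includes 0.

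The standard error between spots was 0.029 to 0.063 log2 units for this ratio on each array, of the order of the wild-type SD. With the brighter probe of miR-126-3p the difference was 0.19 and the groups did not overlap, and with the dimmer probe it was 0.15 and they did. Without megabladder mouse 3 it was 0.11. With normexp background correction it turned to -0.51. That correction adds an offset of 50 units, which is above the unscaled signal of miR-126-5p on every array.

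**Figure D2:**
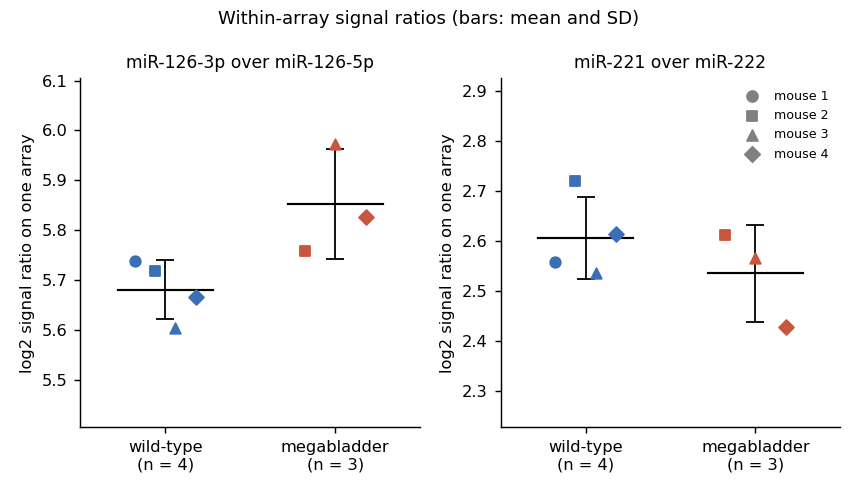
Log2 signal ratio on each array for miR-126-3p over miR-126-5p and for miR-221 over miR-222, 1 point per mouse, with the mean and SD of 4 wild-type and 3 megabladder kidneys. The ratio of the miR-126 arms is 5.60 to 5.74 in wild-type and 5.76 to 5.97 in megabladder mice, while the ratios of miR-221 over miR-222 overlap.

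miR-221, which represses Kit and p27, stood at 7.01, 6.95, 6.83 and 7.01 in wild-type mice 1 to 4. Megabladder mice 2 to 4 had 7.04, 6.40 and 7.14. Megabladder mice 2 and 4 lay above all wild-type mice and megabladder mouse 3 below them all. The means were 6.95 ± 0.087 (SD, n = 4) and 6.86 ± 0.40 (SD, n = 3). The difference of -0.090 (95% interval -0.52 to 0.34) did not pass in limma, with an adjusted p of 0.873. Without megabladder mouse 3 it was 0.14. Its 2 probes gave -0.10 and -0.078.

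miR-222, with the same seed, stood at 4.45, 4.23, 4.29 and 4.40 in wild-type mice 1 to 4. It stood at 4.43, 3.83 and 4.71 in megabladder mice 2 to 4, again with mouse 3 lowest and mouse 4 highest of all. The means were 4.34 ± 0.10 (SD, n = 4) and 4.32 ± 0.45 (SD, n = 3). The difference was -0.019 (95% interval -0.49 to 0.46, adjusted p = 0.972 in limma). Without megabladder mouse 3 it was 0.23, without wild-type mouse 1 it was 0.017 and without wild-type mouse 4 it was 0.0013. In megabladder mouse 3 the dimmer of its 2 probes was at the floor of 11.4 units, so that value is a bound in part.

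The log2 ratio of miR-221 over miR-222 was 2.56, 2.72, 2.54 and 2.61 in wild-type mice 1 to 4 and 2.61, 2.57 and 2.43 in megabladder mice 2 to 4. The groups overlapped, with means of 2.61 ± 0.082 (SD, n = 4) and 2.54 ± 0.097 (SD, n = 3). The difference was -0.071 (2-sided exact permutation p = 0.429, adjusted p = 0.429), with a 95% interval of -0.29 to 0.15 in limma. All 4 combinations of their probes gave a difference between -0.085 and -0.058. The dimmer probe of miR-222 was at the floor in megabladder mouse 3, so the ratio of that mouse is a bound in part. With a floor of 1 unit the difference was -0.0038 (2-sided exact permutation p = 0.943). The ratio spanned 0.29 log2 units over the 7 mice.

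Across the 7 mice miR-221 and miR-222 moved together (Pearson r = 0.944, 2-sided exact permutation p = 0.00298; Spearman rho = 0.857, exact permutation p = 0.0238). Adjusted over the 2 correlations these p-values were 0.00595 and 0.0476. With the 2 mice farthest from the median of miR-221 left out, megabladder mouse 3 and wild-type mouse 3, r was 0.977. The arms of miR-126 had r = 0.854 (exact permutation p = 0.0685, adjusted 0.0685) and rho = 0.393 (exact permutation p = 0.396, adjusted 0.396). Without megabladder mice 3 and 4, the lowest and highest of all mice for miR-126-3p, r was 0.414. Leaving out the extremes narrows the range of levels and can by itself lower r. Members from different hairpins also moved together: as a description, r was 0.900 for miR-126-3p with miR-221 and 0.855 with miR-222, and 0.782 and 0.679 for miR-126-5p with each. miR-218 had a negative r with the other 4, from -0.789 to -0.446. Values of one array share its scaling factor and its labelling, and that part was not tested.

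miR-218, which represses Robo receptors, stood at 5.97, 6.01, 5.80 and 5.81 in wild-type mice 1 to 4. It stood at 5.86, 6.05 and 5.58 in megabladder mice 2 to 4. Its order among the megabladder mice was the reverse of that of the other 4 microRNAs, with mouse 3 highest and mouse 4 lowest of all. The means were 5.90 ± 0.11 (SD, n = 4) and 5.83 ± 0.24 (SD, n = 3). The difference of -0.065 (95% interval -0.38 to 0.25) did not pass in limma, with an adjusted p of 0.873. Without megabladder mouse 4 it was 0.059. Both probes were well above background on all 7 arrays, at -0.088 and -0.042.

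The spread between mice was larger in megabladder than in wild-type kidneys for all 5 microRNAs, as it was for 61.5% of the 213 tested. The ratio of the SDs was 5.38 for miR-126-3p, 5.21 for miR-126-5p, 4.62 for miR-221, 4.39 for miR-222 and 2.14 for miR-218. With 4 and 3 mice these SDs are themselves poorly known, and the difference in spread was not tested. Megabladder mouse 3 lay below the mean of megabladder mice 2 and 4 by 0.23 log2 units for miR-126-3p, 0.41 for miR-126-5p, 0.69 for miR-221 and 0.74 for miR-222. For miR-218 it lay above that mean by 0.33. The same quantity had a median of -0.17 over all tested microRNAs, with quartiles of -0.36 and 0.086, so miR-126-5p, miR-221 and miR-222 lay below the quartile range and miR-218 above it. Megabladder mouse 4 stood apart the other way. Against the mean of megabladder mice 2 and 3 it had 0.42 for miR-221, 0.58 for miR-222 and -0.37 for miR-218. These lay outside its quartiles of -0.097 and 0.31 over all tested. miR-126-3p (0.21) and miR-126-5p (0.24) lay inside them.

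Other cell types were read in the same mice by the summed level of their marker microRNAs. Signals were added up before the log2 was taken, so the brightest microRNA of a list weighs most. The leukocyte sum over 4 tested of 6 listed was 7.12 in megabladder mouse 3, the lowest of all 7 mice, against 7.32 and 7.65 in megabladder mice 2 and 4 and 7.26 to 7.65 in wild-type mice. The tubule sum over 7 microRNAs was also lowest in megabladder mouse 3, at 11.90 against 12.08 to 12.18 in the other 6. Its members did not vary alike among the megabladder mice. Their SD was 0.47 for miR-192 and 0.50 for miR-194, 0.35 for miR-200c and 0.20 for miR-204. It was 0.13 for miR-30c, 0.11 for miR-200b and 0.010 for miR-30a. The only tested neuron microRNA, miR-128, was lowest in megabladder mouse 3 as well, at 4.08. The sum over 20 tested microRNAs of the vascular list, described below, was not. It was 13.06 in megabladder mouse 3, 13.05 and 12.98 in megabladder mice 2 and 4, and 12.99 to 13.11 in wild-type mice. The erythroid sum over 3 microRNAs was 11.20 in megabladder mouse 3 and highest in megabladder mouse 4, at 11.86. It was almost all miR-451, with a wild-type mean of 11.22 against 6.15 for miR-144 and 5.13 for miR-486. The sum of the 2 tested smooth muscle and pericyte microRNAs, miR-143 and miR-145, ran from 7.23 to 7.57 in wild-type and from 7.37 to 7.69 in megabladder mice. It was mostly miR-143, with a wild-type mean of 7.23 against 4.40 for miR-145. Of the untested members of that list, miR-133a was above background on no array, and miR-1 and miR-133b on 2 arrays each. The part of these cells in the values of mouse 3 was not tested.

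Likeness of other microRNAs to these 5 was measured by Pearson's r over 7 arrays and is given as a description. A mouse that stands apart can carry such an r. The levels most like those of miR-126-3p were those of miR-146a (r = 0.965), miR-98 (0.915) and miR-455* (0.912). For miR-126-5p they were let-7a (0.977), let-7f (0.969) and miR-98 (0.948). For miR-221 they were miR-374 (0.976), miR-203 (0.952) and miR-146a (0.948), and for miR-222 they were miR-16 (0.979), miR-194 (0.977) and miR-103 (0.957). miR-218 was most like miR-10b (0.969), miR-10a (0.929) and miR-30e (0.849). Of these, miR-146a is also on the leukocyte list, miR-194 on the tubule list, and let-7f, miR-16, miR-10a and miR-10b on the vascular list. Over all pairs of tested microRNAs the median r was 0.116, with quartiles of -0.350 and 0.543.

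A list of 22 other microRNAs reported in endothelial cells or vessel growth had 20 tested members. None differed between the genotypes in limma at an adjusted p under 0.05, where 3.29% of all tested did, and 2 of 20 had an unadjusted p under 0.05, against 23.0% of all tested. The log2 fold change was positive for 13 and negative for 7, against 145 and 68 of all tested. Its median was 0.084 against 0.087 for all tested. The smallest p-values were those of miR-296-5p (0.32), let-7f (-0.30) and miR-100 (0.30), with adjusted p-values of 0.214, 0.214 and 0.224 in limma. Groups did not overlap for 1 of the 20, let-7f, against 22.1% of all tested. miR-322 and miR-503, a cluster studied in endothelial cells, had 0.21 and 0.24. The other lists held no microRNA with an adjusted or unadjusted limma p under 0.05. The smallest p-values were those of miR-204 (0.50), miR-200b (-0.12) and miR-30c (-0.098) among 7 tubule, and miR-155 (-0.47), miR-146a (-0.15) and miR-142-3p (-0.15) among 4 leukocyte microRNAs. Among the 3 erythroid microRNAs the log2 fold changes were 0.045 (miR-451), 0.11 (miR-144) and 0.32 (miR-486). miR-145 had 0.24 and miR-143 0.091, and miR-128 of the neuron list had 0.11.

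**Figure D3:**
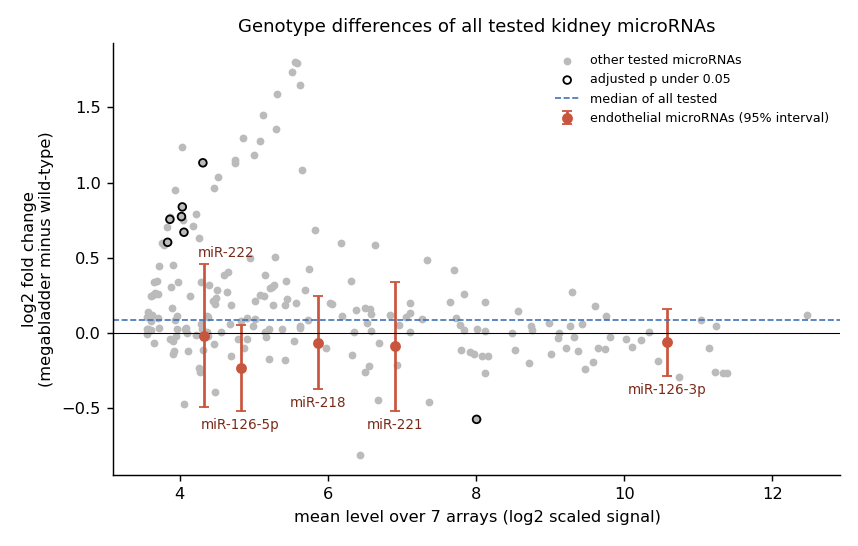
Log2 fold change (megabladder minus wild-type) against mean level over the 7 arrays (log2 scaled signal) for 213 tested microRNAs, with those at an adjusted p under 0.05 ringed. The 5 endothelial microRNAs, with 95% intervals, lie between -0.23 and -0.019, below the median of all tested at 0.087 (dashed), and every interval includes 0.

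The calls on these microRNAs changed with the scaling of the arrays. Before scaling, the spots of miR-126-3p averaged 1802, 2082, 2258 and 1586 scanner units in wild-type mice 1 to 4 and 1205, 1335 and 1086 in megabladder mice 2 to 4. Unscaled, 4 of the 5 microRNAs were lower in megabladder kidneys at an adjusted p under 0.05 in limma, where 31.9% of all tested were. Their groups did not overlap for 4 of 5, against 42.3% of all tested. The differences were -0.67 for miR-126-3p (adjusted p = 0.0347), -0.85 for miR-126-5p (0.0274), -0.70 for miR-221 (0.0274) and -0.64 for miR-222 (0.0347). miR-218 had -0.68 and did not pass (0.0773). The median of all tested microRNAs was then -0.50, so that relative to it the 5 stood at -0.35 to -0.13. In the scaling used above they stood at -0.32 to -0.11 relative to the median of all tested. A single factor per array moves all microRNAs alike, so these relative values are close by construction, apart from the floor. The arm ratio of miR-126 differed by 0.17 unscaled as well.

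Scaling by the 75th percentile of all probes gave -0.97 to -0.72 for the 5 microRNAs, with a median of -0.62 for all tested. No microRNA then had an adjusted p under 0.05 in limma, while 107 of 213 had an unadjusted p under 0.05. Relative to the median of all tested, by 5 scalings, miR-126-5p ranged from -0.54 to -0.32, miR-218 from -0.26 to -0.15, miR-221 from -0.21 to -0.095 and miR-222 from -0.38 to -0.098. miR-126-3p changed sign, from -0.18 to 0.11, the positive value being that of scaling by quantiles. Scaling by quantiles also gave -0.54 for miR-126-5p, -0.26 for miR-218, -0.095 for miR-221 and -0.38 for miR-222, an end of each range. The other scalings use at most 1 factor per array, so their relative values are close by construction, apart from the floor.

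**Figure D4:**
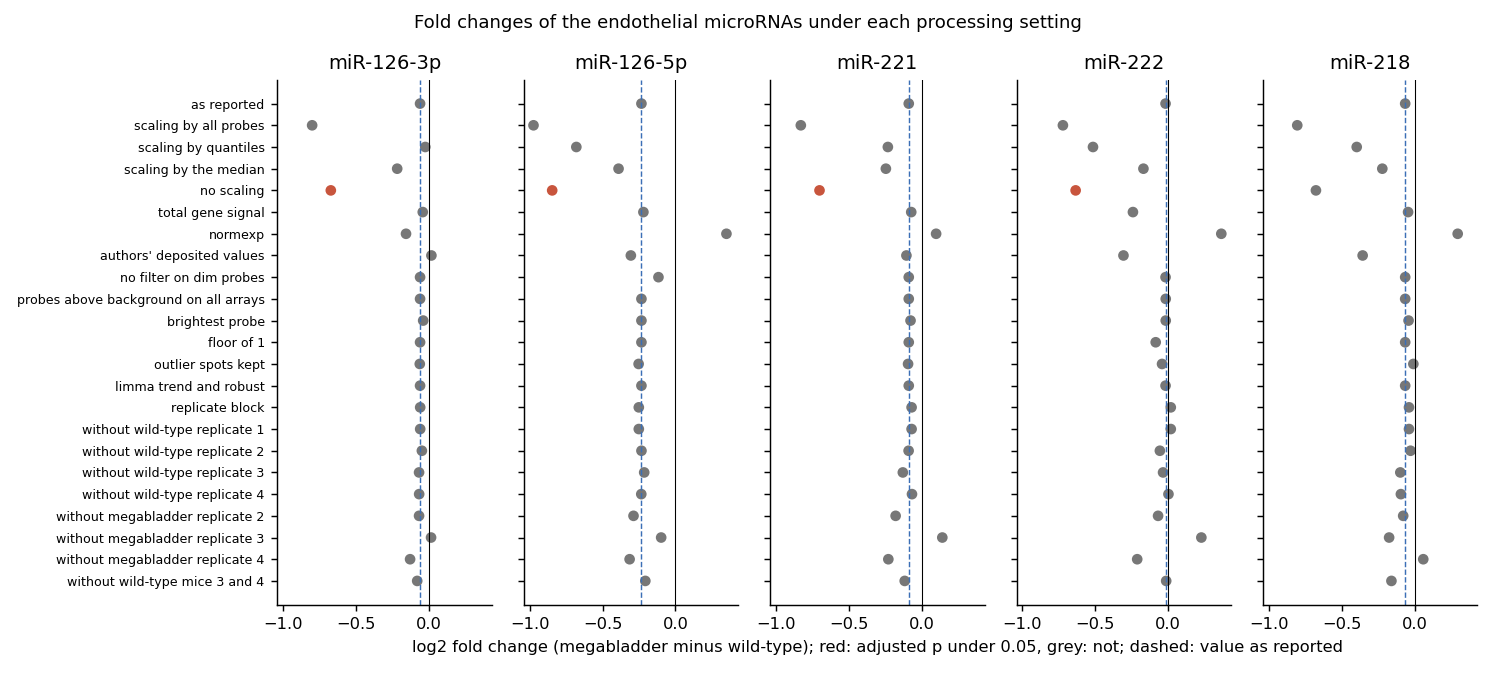
Log2 fold change (megabladder minus wild-type) of each endothelial microRNA as reported and under 22 other settings, with values at an adjusted p under 0.05 in red; the dashed line is the value as reported. Red points appear for 4 of the 5 microRNAs and with no scaling only.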

How the data were processed

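Total RNA of snap-frozen kidneys (100 ng per mouse) carried the Cy3 dye, per the labels' protocols. The deposited intensity columns come from Agilent Feature Extraction 10.7.3.1, per the submitters' processing notes, and are not scaled between arrays. A second table of intensity values, deposited by the authors with unstated scaling, was an alternative. In alphabetical order, its names were used only up to the first whose mean departed from the arrays' own signal by over 1 log2 unit (531 of 650 names, 190 of them tested); the members came before it and departed by up to 0.821.

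Control spots and outlier-marked spots (3.45% to 3.77%) were dropped; none was saturated. Spots were averaged per probe and divided by the array's 75th percentile over 292 of 1857 probes detected on all arrays. The result was rescaled to scanner units, limited below at 11.4 units and put into log2. A microRNA's level is the mean of its probes that 3 or more arrays found well above background. Genotypes were compared with limma 3.58.1 (R 4.3.3) over 213 microRNAs, and ratios by exact permutation; the limma step was tested on simulated data. The number of arrays limits the precision.

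Members and lists were chosen with earlier results of these data known. The text names the members, the 3 microRNAs of each list with the smallest p, and the 3 most like each member. miR-322, miR-503, miR-9, miR-124, miR-1, miR-133a, miR-133b, miR-192, miR-200c and miR-30a were named after their values were seen. Alternatives covered the scaling, the signal used, normexp (on the median spot signal), filters, the floor, the test, a block for mouse number and leaving out mice.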

Additional observations from a re-analysis of the deposited data

Results flagged for a closer look

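Fewer microRNAs were above background in wild-type mouse 4 (190) than in wild-type mice 1 to 3 (204 to 206). Over the 4 wild-type mice 9 measures were examined for a mouse set apart: the 5 endothelial levels, both ratios, the scaling factor and this number. This was the only one of the 9, and chance sets a mouse apart in about 1 in 20 such measures. All 5 endothelial microRNAs had a probe well above background in that mouse, at 10.58 for miR-126-3p, 4.92 for miR-126-5p, 7.01 for miR-221, 4.40 for miR-222 and 5.81 for miR-218.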

How the results depend on the processing

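Over 22 alternatives the 5 fold changes stayed short of the threshold except unscaled, where miR-126-3p (-0.67), miR-126-5p (-0.85), miR-221 (-0.70) and miR-222 (-0.64) passed. The sign turned with normexp for miR-126-5p (0.35), miR-221 (0.098), miR-222 (0.36) and miR-218 (0.30), and in the authors' deposited values for miR-126-3p (0.016). With normexp the median of all tested microRNAs was itself 0.35. Relative to that median miR-126-5p stood at -0.0048, miR-221 at -0.26, miR-222 at 0.0096, miR-218 at -0.059 and miR-126-3p at -0.51. Leaving out each mouse in turn gave -0.13 to 0.014 for miR-126-3p, -0.31 to -0.098 for miR-126-5p, -0.23 to 0.14 for miR-221, -0.21 to 0.23 for miR-222 and -0.18 to 0.059 for miR-218. The difference in the arm ratio of miR-126 was 0.65 by quantiles (exact permutation p = 0.114) and -0.51 with normexp (0.0857). By the same test it was 0.32 in the authors' deposited values (0.2), 0.055 with no filter (0.229) and 0.13 without wild-type mice 3 and 4 (0.2). With trend and robust fit the difference was 0.17 with a limma p of 0.171, against a limma p of 0.0999 in the fit used above. Without 1 mouse the arm ratio differed by 0.11 to 0.22. The exact permutation p was 0.1 without any 1 wild-type mouse and 0.0667 without megabladder mouse 2 or 4. These are the smallest values that 6 mice allow. Without megabladder mouse 3 the difference was 0.11 and the p was 0.133, above the smallest possible. The difference in the ratio of miR-221 over miR-222 turned to 0.28 by quantiles, 0.17 with total gene signal and 0.20 in the authors' deposited values. The cause of these turns was not tested. The count of 7 changed microRNAs was 0 with all probes, quantiles, normexp, no filter or a floor of 1 (limma's unadjusted p was under 0.05 for 107, 45, 35, 40 and 30 microRNAs). It was 2 by the median or total gene signal, 1 in the authors' values or without wild-type mice 3 and 4, 4 with probes above background on all arrays, 69 unscaled, and 0 to 19 without 1 mouse (19 without megabladder mouse 3, and 0 without wild-type mouse 1, 2 or 3 or megabladder mouse 2, with 47, 46, 26 and 32 at an unadjusted p under 0.05). Of the 20 vascular list microRNAs 3 passed as lower unscaled (let-7f, miR-15a and miR-16), against 31.9% of all tested. Mouse numbers do not pair the mice by the labels, and same-numbered mice had correlations of deviations of -0.21, 0.0066 and 0.21, with 1 of 3 best with its own number. With the replicate block the count was 28, the arm ratio differed by 0.19 (exact permutation p = 0.25, the smallest possible), miR-222 had 0.017, and no endothelial microRNA passed.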

Other observations

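The passenger strands miR-218-1* and miR-218-2* were on the array with 4 probes each, and none was well above background on any of the 7 arrays. In the authors' deposited table miR-126-5p was listed at 34 in all 3 megabladder mice and at 38, 38, 47 and 46 in wild-type mice 1 to 4. In the same deposited table miR-126-3p was listed at 2353, 2136, 1814 and 1996 in wild-type mice 1 to 4 and at 1996, 2136 and 2136 in megabladder mice 2 to 4, so that values recurred between arrays. In the authors' deposited table miR-218 was listed at 103, 120, 110 and 108 in wild-type and at 88, 95 and 76 in megabladder mice. Groups did not overlap in the authors' deposited table for 2 of the 5 microRNAs, miR-126-5p and miR-218, against 20.5% of the 190 tested there. The adjusted p of miR-218 in limma on the authors' deposited values was 0.300, over 190 microRNAs.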
